A study of Mus musculus with 27 samples.

Results

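The 44 genes described here carry the mammalian cell cycle: cyclins, cyclin-dependent kinases (Cdks), Cdk inhibitors, the pocket proteins and their transcription factors, the replication licensing machinery, the enzymes that supply DNA precursors, and mitotic kinases and checkpoint genes. They were chosen by symbol, and all 44 were found among the 24953 gene rows of an RNA-seq table holding 9 libraries. All 44 passed the filter on low values in every comparison, each with at least 1 TPM, a transcript abundance corrected for gene length and library total, in 3 or more of the 6 libraries compared. The cells were mK4, a mouse line of kidney metanephric mesenchyme, the embryonic tissue that gives rise to nephrons. The study compared parental mK4 cells (control, 3 libraries) with Runx1KO cells, in which a pair of guide RNAs removed the Runx1 exon that holds the start codon (3 libraries), and with ZebDKO cells, in which the start-codon exons of both Zeb1 and Zeb2 were targeted and Runx1 was left in place (3 libraries). Knockout cells were grown from picked clones, and the number of clones behind the libraries was not given in the sources used here. Cultures were grown in triplicate, in medium with 10% FBS, and collected at or near confluency. Replicates of a line therefore measure the spread between cultures of that line, and a difference between lines cannot be told apart from a difference between clones.

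As background, a cell enters the cycle when D-type cyclins with Cdk4 or Cdk6, and then E-type cyclins with Cdk2, phosphorylate the pocket proteins, among them Rb1, which releases E2F factors that switch on replication genes. Inhibitors of the INK4 class (Cdkn2a, Cdkn2b and Cdkn2c) bind Cdk4 and Cdk6, while Cdkn1a and Cdkn1b act on cyclin and Cdk complexes. In G1 Cdc6 and Cdt1 load the MCM2-7 helicase on origins, and in G2 and mitosis Foxm1, Mybl2, the B-type cyclins with Cdk1, and the kinases Plk1 and Aurora A and B take over. As further background, mK4 was established from tissue that carried a viral large T antigen, a protein that binds pocket proteins and p53.

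The 9 libraries were alike in depth of detection, with 12541 to 12697 genes at 1 TPM or more. The number of reads behind a TPM value is unknown, so no counting error could be attached to it. Of the targeted genes, Zeb1 stood at 15 ± 0.709 TPM in control (mean ± SD, n = 3) and 0.167 ± 0.0577 TPM in Runx1KO, but at 16.1 ± 1.10 TPM in ZebDKO. Zeb2 stood at 5.20, 0.200 and 1.70 TPM in the same order, and Runx1 at 17.4, 29.6 and 10.1 TPM. A value over the whole gene does not read the deleted exons, so it is no check of the edits. The paper showed the deletions by PCR, and by Western blot the absence of Runx1 protein in Runx1KO and of Zeb1 protein in ZebDKO. It had no antibody that detected Zeb2. Among markers of metanephric mesenchyme, Hoxa11, Pax2, Osr1 and Sall1 were expressed in control, whereas Six2, Wt1, Cited1 and Hoxd11 stood at or near 0. The summed TPM of 10 epithelial markers was 2.8 to 5 in control, 2663 to 2745 in Runx1KO and 1153 to 1212 in ZebDKO. Most of the sum was Krt8, at means of 2.43 TPM in control, 2353 TPM in Runx1KO and 1050 TPM in ZebDKO. Means of Krt18, Krt19, Cldn4, Grhl2, Esrp1 and Ocln were also higher than control in both lines. Epcam was at 0 TPM in Runx1KO and 27.9 TPM in ZebDKO, and Cdh1 and Cldn7 stayed under 1 TPM throughout. The sum moved with the lines, as did every result below, and the part of these markers in those results was not tested. A lower level could be fewer cells in a phase or less RNA per cell, which cannot be told apart in bulk RNA.

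The summed level of the 44 genes was 8061 to 8093 TPM in control, 0.808% of all TPM, 8010 to 8097 TPM in Runx1KO and 7731 to 7815 TPM in ZebDKO, the last below every control library. These sums are of TPM as deposited. They were not taken again after the scaling described below, which raises ZebDKO values relative to control. Within that total, single genes moved in both directions. In Runx1KO cells 14 of the 44 were higher than control and 21 lower at an adjusted p under 0.05 (limma over 13067 genes, Benjamini-Hochberg), where 30.4% of all genes tested were higher and 40.1% lower. The change passed 2-fold for 2 genes, Ccnd2 and Cdkn2b, or 4.55% of the 44, against 13% of all genes. In ZebDKO cells 14 were higher and 22 lower, against 26.9% and 52.5% of 12974 genes, and 3 passed 2-fold (Cdkn2b higher, Rb1 and Ccne2 lower), or 6.82% against 14.8%. Compared directly, 21 of the 44 were higher in Runx1KO than in ZebDKO and 16 lower, against 50.2% and 29.8% of 13071 genes, and Ccnd2 and Ccne1 passed 2-fold, or 4.55% against 15.8%. The comparisons share libraries, the 3 controls in the first 2, so they are not independent of each other.

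The median log2 fold change of the 44 genes was -0.09 in Runx1KO, beside -0.06 for all genes tested, and -0.09 in ZebDKO, beside -0.18 for all genes. Since the ZebDKO values of all genes were centred below 0, the directions there were also read after scaling each library to the median ratio, which brings that median to 0. The ZebDKO split of the 44 genes then became 19 higher and 16 lower, and the direct split 16 higher and 22 lower, in place of 14 and 22, and 21 and 16. In Runx1KO the scaled split was 16 higher and 17 lower. Of all genes tested, 38.2% were then higher and 37.9% lower in ZebDKO, and 34.7% and 34.1% in Runx1KO. In the direct comparison 5186 of 13071 genes were then higher and 5146 lower. Calls that this scaling changed are given with the genes below or in the section on processing.

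**Figure D1:**
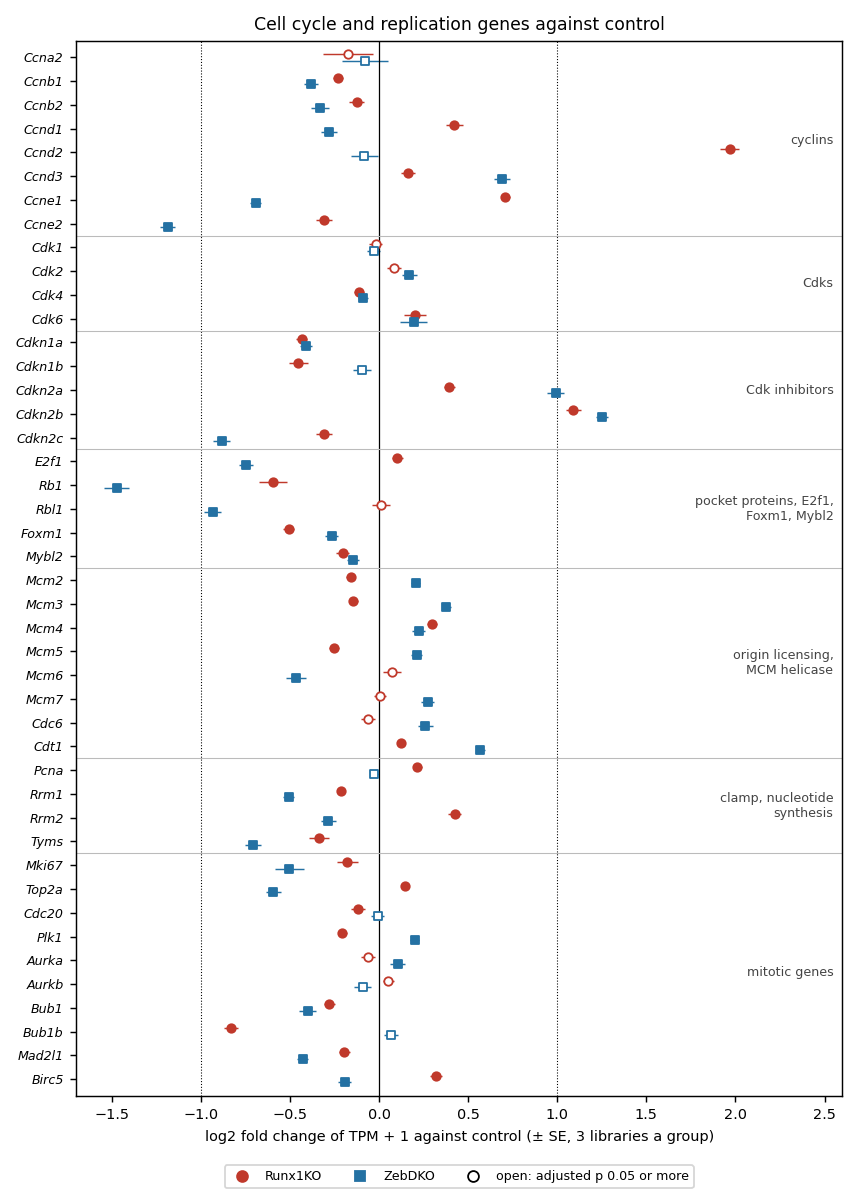
Log2 fold change of TPM + 1 against control (x axis) for each of the 44 genes, grouped by role, in Runx1KO (circles) and ZebDKO (squares), with bars for the standard error and 3 libraries in each group. Filled symbols passed an adjusted p of 0.05, and dotted lines mark 2-fold. Ccnd2 lies farthest to the right at 1.97 in Runx1KO, and Rb1 farthest to the left at -1.47 in ZebDKO.

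Among the 8 cyclins 4 rose and 3 fell in Runx1KO, and 1 rose and 5 fell in ZebDKO. Of all genes tested, 30.4% rose and 40.1% fell in Runx1KO, and 26.9% rose and 52.5% fell in ZebDKO. These shares are the baseline for the counts of each role group below. The largest changes were those of D- and E-type members, which act in G1. Ccnd2, a D-type cyclin that activates Cdk4 and Cdk6, was expressed at 14.4, 14.6 and 16 TPM in the 3 control libraries, at 64.3, 59.9 and 60.3 TPM in Runx1KO, and at 13.3, 13.5 and 15.6 TPM in ZebDKO. Every Runx1KO library lay well above the others, while control and ZebDKO overlapped. The level in Runx1KO was 4.10-fold that of control (log2 fold change 1.97 ± 0.05, adjusted p = 1.22e-07), and it differed from ZebDKO by 2.05 ± 0.06 on the log2 scale (adjusted p = 2.35e-07). In ZebDKO the log2 value was -0.08 ± 0.07 (adjusted p = 0.332). A second deposited TPM table, of the 6 control and Runx1KO libraries, gave a Runx1KO value of 1.49 in place of 1.97.

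Ccne1 and Ccne2 both encode E-type cyclins, the partners of Cdk2 at the start of S phase, and did not follow each other. Ccne1 stood at 60.5, 59.4 and 61.0 TPM in control, 99.3, 100 and 98.3 TPM in Runx1KO, and 36.6, 37.2 and 36.9 TPM in ZebDKO. The groups were far apart and in opposite directions from control. Ccne1 rose by 0.71 ± 0.03 in Runx1KO (adjusted p = 5.88e-07) and fell by 0.69 ± 0.03 in ZebDKO (adjusted p = 1.45e-06), and Runx1KO was 2.69-fold above ZebDKO (adjusted p = 3.63e-08). Ccne2 was lower in both lines, at 32.6, 32.5 and 31.8 TPM in control, 26.5, 24.2 and 27.0 TPM in Runx1KO, and 13.4, 13.3 and 14.2 TPM in ZebDKO. No Ccne2 value of a knockout reached the lowest control. Its log2 fold change was -0.31 ± 0.05 in Runx1KO (adjusted p = 0.000888) and -1.19 ± 0.04 in ZebDKO (adjusted p = 4.61e-07), the latter -1 after median-ratio scaling, at which it no longer passed 2-fold.

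The other D-type cyclins showed smaller changes. Ccnd3 was at 50.4, 54.9 and 53.1 TPM in control, 58.4, 60.4 and 58.9 TPM in Runx1KO, and 82.8, 84.9 and 89.8 TPM in ZebDKO. It therefore rose in steps without overlap, by 0.16 ± 0.04 in Runx1KO (adjusted p = 0.00732) and by 0.69 ± 0.05 in ZebDKO (adjusted p = 7.84e-06), and the ZebDKO level was the higher in the direct comparison (log2 difference -0.53 ± 0.04, adjusted p = 1.01e-05). Ccnd1, the most abundant D-type cyclin here, averaged 221.4 ± 8.87 TPM in control, 297.0 ± 16.8 TPM in Runx1KO and 182.0 ± 8.47 TPM in ZebDKO (SD, n = 3). It rose by 0.42 ± 0.05 in Runx1KO, and its fall of -0.28 ± 0.04 in ZebDKO became -0.09 (adjusted p = 0.111) after median-ratio scaling.

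Ccnb1, a mitotic partner of Cdk1 and the cyclin with the highest mean TPM, was measured at 317.0, 316.3 and 302.8 TPM in control, 264.3, 260.3 and 271.8 TPM in Runx1KO, and 238.9, 249.6 and 230.0 TPM in ZebDKO. It was lower than every control library in both lines (log2 fold change -0.23 ± 0.03, adjusted p = 0.000322, and -0.38 ± 0.04, adjusted p = 5.65e-05). Ccnb2 moved the same way, by -0.13 ± 0.04 and -0.33 ± 0.05. Its Runx1KO call was lost when control replicate 2 or 3 or Runx1KO replicate 1 or 2 was left out (adjusted p = 0.0526 to 0.103) and after scaling. Ccna2, the A-type cyclin of S phase and G2, was the least even gene of the 44, with 186.4, 231.8 and 281.3 TPM in the control libraries. Its knockout values, 188.1 to 220.8 TPM in Runx1KO and 215.1 to 220.5 TPM in ZebDKO, all lay inside that range.

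The 4 kinases had log2 fold changes of at most 0.20 in size against control in the TPM values as deposited. After median-ratio scaling all 4 were called higher in ZebDKO, Cdk6 at 0.38, Cdk2 at 0.36, Cdk1 at 0.16 and Cdk4 at 0.11. Cdk4, the G1 kinase of D-type cyclins and the most abundant of the 4, stood at 379.9, 395.0 and 380.1 TPM in control, 359.3, 347.0 and 362.4 TPM in Runx1KO, and 363.0, 357.6 and 364.2 TPM in ZebDKO. Its log2 fold changes were -0.11 ± 0.03 (adjusted p = 0.00962) and -0.09 ± 0.03 (adjusted p = 0.0166). After median-ratio scaling the first was -0.05 and no longer called, and the second turned to 0.11. Cdk1, the mitotic kinase, was at 122.1 to 131.4 TPM in control, 123.6 to 128.5 TPM in Runx1KO and 120.9 to 127.1 TPM in ZebDKO. These ranges overlap throughout, and no comparison of Cdk1 passed the test (log2 values -0.02 ± 0.04, -0.03 ± 0.04 and 0.01 ± 0.03). Scaling brought calls in ZebDKO (0.16, adjusted p = 0.0057) and in the direct comparison (-0.15, adjusted p = 0.00357). Cdk2 rose by 0.17 ± 0.04 in ZebDKO, and its Runx1KO value of 0.08 ± 0.04 (adjusted p = 0.0951) was called after scaling (0.14, adjusted p = 0.0178). Cdk6 was called higher in both lines (0.20 ± 0.06 and 0.19 ± 0.07). Its Runx1KO call was lost without Runx1KO replicate 1 or 3 (adjusted p = 0.0546 to 0.0718), and its ZebDKO call without any 1 of 4 libraries, control replicates 2 and 3 and ZebDKO replicates 2 and 3 (adjusted p = 0.063 to 0.136).

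The 5 Cdk inhibitors moved in both directions within each line, with 2 higher and 3 lower in Runx1KO, and 2 higher and 2 lower in ZebDKO. Cdkn2b, which encodes the INK4 inhibitor p15, was expressed at 33.3, 32.7 and 34.4 TPM in control, 68.8, 74.8 and 73.6 TPM in Runx1KO, and 80.5, 80.7 and 81.6 TPM in ZebDKO. All 6 knockout libraries stood at more than the control level by a wide margin, 2.16-fold in Runx1KO (log2 fold change 1.09 ± 0.04, adjusted p = 7.11e-07) and 2.42-fold in ZebDKO (1.25 ± 0.03, adjusted p = 1.16e-07). Its neighbour Cdkn2a, which encodes p16 and, from another first exon, the p53 activator p19Arf, was at 115.0, 119.2 and 114.2 TPM in control, 155.3, 150.0 and 153.7 TPM in Runx1KO, and 247.6, 219.9 and 228.8 TPM in ZebDKO. These were ordered steps too, of 0.39 ± 0.03 in Runx1KO (adjusted p = 1.86e-05) and 0.99 ± 0.05 in ZebDKO (adjusted p = 1.56e-06), with Runx1KO below ZebDKO by -0.60 ± 0.04 (adjusted p = 1.28e-05). The ZebDKO value lay just under the 2-fold limit, and was 1.19 after median-ratio scaling. A gene-level TPM does not separate the p16 and p19Arf transcripts.

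The other 3 inhibitors fell in Runx1KO, and Cdkn1a and Cdkn2c also in ZebDKO. Cdkn1a, which encodes the p53-induced inhibitor p21 and was the most abundant of the 5, stood at 563.1, 562.4 and 543.1 TPM in control, 418.9, 416.6 and 398.2 TPM in Runx1KO, and 406.9, 411.0 and 437.3 TPM in ZebDKO. Both lines lay below every control library (-0.43 ± 0.03, adjusted p = 1.24e-05, and -0.41 ± 0.04, adjusted p = 2.54e-05), and the lines overlapped each other. Cdkn1b, which encodes p27, fell by 0.45 ± 0.05 on the log2 scale in Runx1KO (167.2 to 121.8 TPM) and was at 156.2 TPM in ZebDKO, where the test was not passed (adjusted p = 0.104). Cdkn2c, which encodes p18, went from 99.9 TPM in control to 80.3 TPM in Runx1KO and 53.7 TPM in ZebDKO, with log2 fold changes of -0.31 ± 0.05 and -0.88 ± 0.05.

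**Figure D2:**
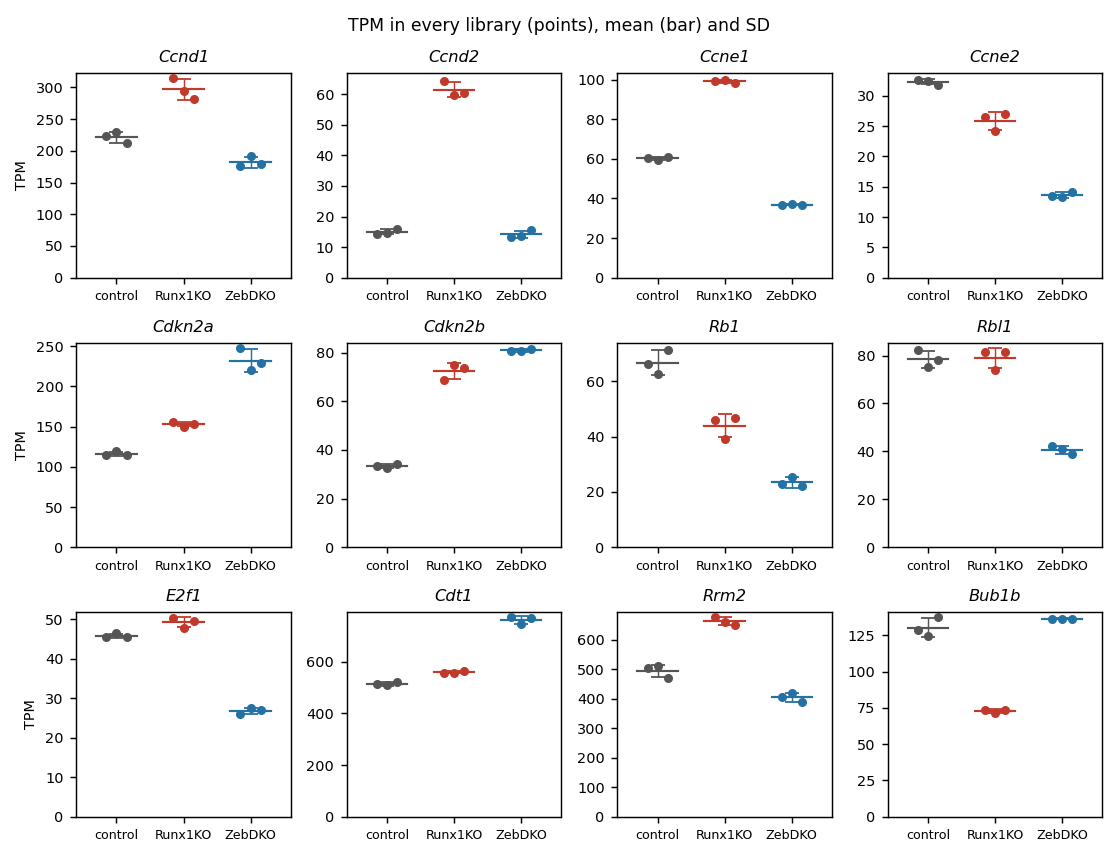
TPM (y axis, from 0) of 12 of the genes in each of the 3 control, 3 Runx1KO and 3 ZebDKO libraries, with points for libraries, a bar for the mean and whiskers for the SD. Ccnd2 is high only in the Runx1KO libraries (59.9 to 64.3 TPM), Bub1b is low only there (71.5 to 73.7 TPM), and Cdkn2a rises from 116.1 TPM in control to 232.1 TPM in ZebDKO.

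The pocket proteins and the factors E2f1, Foxm1 and Mybl2 were all called lower in ZebDKO, 5 of 5, a count that falls to 3 after median-ratio scaling, while 1 rose and 3 fell in Runx1KO. Of all genes tested, 52.5% were called lower in ZebDKO, or 37.9% after that scaling, and 40.1% in Runx1KO. Rb1, the retinoblastoma protein that holds E2F factors inactive, was at 66.1, 62.6 and 71.4 TPM in control, 45.9, 39.1 and 46.7 TPM in Runx1KO, and 22.7, 25.5 and 22 TPM in ZebDKO. The 3 groups did not overlap. Rb1 fell by 0.59 ± 0.08 on the log2 scale in Runx1KO (adjusted p = 0.0004) and by 1.47 ± 0.07 in ZebDKO (adjusted p = 1.53e-06), and the lines differed from each other by 0.88 ± 0.08 (adjusted p = 3.92e-05). Rbl1, the pocket protein p107, stood at 82.2, 75.1 and 78.1 TPM in control, 81.3, 74.1 and 81.4 TPM in Runx1KO, and 42.2, 40.8 and 38.8 TPM in ZebDKO. Control and Runx1KO overlapped (0.01 ± 0.05, adjusted p = 0.895), whereas ZebDKO was lower than control (-0.93 ± 0.05, adjusted p = 2.26e-06) and lower than Runx1KO (difference 0.94 ± 0.05, adjusted p = 2.24e-06). In the second deposited set of TPM values Rbl1 was called lower in Runx1KO, at 77.77, 72.31 and 77.34 TPM. Control stood there at 84.72, 80.89 and 81.41 TPM.

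E2f1, an activator of replication genes, averaged 45.8 ± 0.551 TPM in control, 49.2 ± 1.29 TPM in Runx1KO and 26.9 ± 0.777 TPM in ZebDKO (SD, n = 3). The fall in ZebDKO was -0.75 ± 0.04 (adjusted p = 2.10e-06). The call in Runx1KO, 0.10 ± 0.03, was lost without control replicate 1 or 3 or Runx1KO replicate 1 or 3 (adjusted p = 0.0572 to 0.08). Foxm1, a driver of G2 and mitotic genes, was at 137.7, 132.7 and 139.6 TPM in control, 96.3, 94.0 and 97.3 TPM in Runx1KO, and 110.8, 116.5 and 112.9 TPM in ZebDKO. It was lowest in Runx1KO without overlap (-0.51 ± 0.03, adjusted p = 6.75e-06), and its ZebDKO value of -0.27 ± 0.03 became -0.07 after scaling (adjusted p = 0.0652). Mybl2, the B-Myb factor that works with Foxm1 and the most abundant of this group, was at 135.4, 130.9 and 127.1 TPM in control, 111.2, 118.3 and 111.8 TPM in Runx1KO, and 116.7, 117.0 and 121.3 TPM in ZebDKO. Both lines lay under the lowest control (-0.20 ± 0.04, adjusted p = 0.00204, and -0.15 ± 0.04, adjusted p = 0.00582), though the ZebDKO value turned to 0.05 after scaling (adjusted p = 0.277).

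The licensing genes were mostly higher in ZebDKO than in control. Of the 8, 7 rose in ZebDKO and Mcm6 fell, with a group median of 0.24 on the log2 scale beside -0.18 for all genes, and the same 7 and 1 calls held after median-ratio scaling. In Runx1KO 2 rose (Mcm4 and Cdt1), 3 fell (Mcm2, Mcm3 and Mcm5) and 3 did not pass the test, with a group median of -0.03. Cdt1, the loader of the helicase and the most abundant of the 8, was at 512.2, 508.3 and 521.9 TPM in control, 558.0, 557.3 and 563.0 TPM in Runx1KO, and 772.4, 745.6 and 771.0 TPM in ZebDKO. It rose in steps without overlap, by 0.12 ± 0.02 (adjusted p = 0.00161) and 0.57 ± 0.03 (adjusted p = 1.32e-06).

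Subunits of the same MCM ring differed from each other. Mcm3 averaged 324.7 TPM in control, 293.5 TPM in Runx1KO and 422.0 TPM in ZebDKO, with log2 fold changes of -0.15 ± 0.03 and 0.38 ± 0.03. Mcm2 changed by -0.16 ± 0.03 and 0.21 ± 0.03, and Mcm5 by -0.25 ± 0.03 and 0.21 ± 0.03. Mcm6 went the other way, at 104.6, 116.6 and 119.0 TPM in control, 120.1, 117.2 and 120.0 TPM in Runx1KO, and 80.6, 84.9 and 79.5 TPM in ZebDKO. Its ZebDKO libraries all lay below the others (-0.47 ± 0.05, adjusted p = 0.000138). Mcm4 was called higher in both lines (0.30 ± 0.03 and 0.22 ± 0.03), and Mcm7 and Cdc6 passed the test in ZebDKO (0.27 ± 0.04 and 0.26 ± 0.04) but not in Runx1KO (0.00 ± 0.03 and -0.06 ± 0.04). In the direct comparison 6 of the 8 were lower in Runx1KO than in ZebDKO and Mcm6 was higher (0.54 ± 0.03).

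Promoters of this group share E2F-type letters, which were found in subunits that rose and in the one that fell. RefSeq promoters (assembly GRCm38.p6, from 250 bases before to 50 after the start) were matched for 36 of the 44 genes. Searched on both strands for TTTCCCGC, TTTGGCGC, TTTCGCGC or TTTGCCGC, 6 of the 8 licensing promoters, which come from 7 genes, held a match, against 2.26% of 32851 promoters in all. The 250 bases before the start of Mcm5, which rose in ZebDKO, and of Mcm6, which fell, are shown with E2F-type matches in capitals. Runs longer than 8 capitals are matches on opposite strands that overlap, and CCAAT boxes on either strand are in capitals too. Mcm5 lies at chr8:75109259-75109508 on the plus strand and Mcm6 at chr1:128359706-128359955 on the minus strand.
Mcm5: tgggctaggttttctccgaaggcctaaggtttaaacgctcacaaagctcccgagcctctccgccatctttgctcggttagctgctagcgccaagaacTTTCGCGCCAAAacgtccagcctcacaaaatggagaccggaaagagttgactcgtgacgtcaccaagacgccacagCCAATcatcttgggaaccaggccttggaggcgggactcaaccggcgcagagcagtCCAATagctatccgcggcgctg
Mcm6: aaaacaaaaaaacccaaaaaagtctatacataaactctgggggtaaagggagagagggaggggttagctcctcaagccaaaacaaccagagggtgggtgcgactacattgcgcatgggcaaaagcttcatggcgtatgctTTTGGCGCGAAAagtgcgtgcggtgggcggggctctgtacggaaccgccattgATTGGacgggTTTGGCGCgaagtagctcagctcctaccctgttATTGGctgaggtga
Mcm5 holds 2 E2F-type matches in this stretch and Mcm6 holds 3.

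The genes that supply the fork with its clamp and with nucleotides were all higher in Runx1KO than in ZebDKO, 4 of 4, with a median difference of 0.33 on the log2 scale beside 0.15 for all genes. Of all genes tested, 50.2% were called higher in that comparison. After median-ratio scaling the differences were still called but smaller, at 0.08 for Pcna, 0.13 for Rrm1, 0.21 for Tyms and 0.55 for Rrm2. Pcna, the sliding clamp and the most abundant of the 4, was at 542.0, 526.1 and 524.7 TPM in control, 603.7, 622.8 and 621.5 TPM in Runx1KO, and 525.7, 523.2 and 513.7 TPM in ZebDKO. Runx1KO stood apart above (0.21 ± 0.02, adjusted p = 0.0002), and control and ZebDKO overlapped (-0.03 ± 0.03, adjusted p = 0.347). The ZebDKO value of Pcna depended on the scaling, at 0.17 after median-ratio scaling (adjusted p = 0.000846) and -0.10 after quantile normalization (adjusted p = 0.0204). The subunits of ribonucleotide reductase, which makes deoxynucleotides, did not move together. Rrm2 averaged 494.6 ± 21.5 TPM in control, 663.7 ± 14.2 TPM in Runx1KO and 405.6 ± 14.9 TPM in ZebDKO (SD, n = 3). It rose by 0.42 ± 0.04 in Runx1KO, and its ZebDKO value of -0.29 ± 0.04 became -0.09 after scaling (adjusted p = 0.0913). Rrm1 fell in both lines (-0.22 ± 0.02 and -0.51 ± 0.03), as did Tyms, the thymidylate synthase (-0.34 ± 0.06 and -0.71 ± 0.05).

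Among the 10 mitotic genes, 2 rose and 6 fell in Runx1KO, and 2 rose and 5 fell in ZebDKO, with medians of -0.15 and -0.14. All genes tested had medians of -0.06 and -0.18. Of all genes, 30.4% rose and 40.1% fell in Runx1KO, and 26.9% rose and 52.5% fell in ZebDKO. After median-ratio scaling Bub1b and Cdc20 joined those called higher in ZebDKO, and Birc5 left those called lower. Bub1b, the spindle checkpoint kinase BubR1, was at 128.7, 124.8 and 137.6 TPM in control, 73.3, 71.5 and 73.7 TPM in Runx1KO, and 136.6, 136.5 and 136.2 TPM in ZebDKO. Every Runx1KO library was far below the rest, and control and ZebDKO overlapped. It fell by 0.83 ± 0.04 in Runx1KO (adjusted p = 2.49e-06), and by 0.90 ± 0.03 against ZebDKO (adjusted p = 1.63e-07), whereas the ZebDKO value against control was 0.07 ± 0.04 (adjusted p = 0.163), and 0.26 after scaling (adjusted p = 0.000456). Its partner Bub1 was lower in both lines (-0.28 ± 0.03 and -0.40 ± 0.05), as was Mad2l1, another checkpoint gene (-0.20 ± 0.03 and -0.43 ± 0.03).

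Top2a, the topoisomerase that untangles chromosomes and the most abundant of this group, was at 385.2, 372.4 and 387.1 TPM in control, 419.6, 421.8 and 423.9 TPM in Runx1KO, and 248.4, 267.2 and 242.2 TPM in ZebDKO. The groups did not overlap, with a small rise of 0.14 ± 0.02 (adjusted p = 0.00124) and a fall of -0.59 ± 0.04 (adjusted p = 8.89e-06). Mki67, the proliferation marker Ki-67, averaged 178.1 ± 15.2 TPM in control, 156.9 ± 2.25 TPM in Runx1KO and 125.3 ± 11.1 TPM in ZebDKO (SD, n = 3). It was lower in ZebDKO (-0.50 ± 0.08, adjusted p = 0.000719), while its Runx1KO call (-0.18 ± 0.06) was lost without any 1 of 5 libraries, all but control replicate 2 (adjusted p = 0.0638 to 0.1), and after scaling (-0.12, adjusted p = 0.0987). Plk1, a kinase of mitotic entry, fell by 0.21 ± 0.02 in Runx1KO and rose by 0.20 ± 0.02 in ZebDKO. Birc5, which encodes survivin, rose by 0.32 ± 0.03 in Runx1KO, and its ZebDKO value of -0.19 ± 0.04 was 0.00 after scaling (adjusted p = 0.994).

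Calls of the Aurora kinases and of Cdc20, the activator of the anaphase complex, depended on the scaling. Aurkb passed in neither line (0.05 ± 0.03 and -0.09 ± 0.05), and in Runx1KO alone after scaling (0.11, adjusted p = 0.0189). Aurka was called higher in ZebDKO (0.10 ± 0.04), a call lost without any 1 of 5 libraries, all but control replicate 2 (adjusted p = 0.0717 to 0.142). Its value was 0.30 after median-ratio scaling (adjusted p = 0.000482), and 0.09 and not called after quantile normalization (adjusted p = 0.0926). Cdc20 was called lower in Runx1KO (-0.12 ± 0.04), a call lost without control replicate 2 or Runx1KO replicate 2 or 3 (adjusted p = 0.0561 to 0.0884). After scaling Cdc20 was not called in Runx1KO (-0.06, adjusted p = 0.225) and was called higher in ZebDKO (0.19, adjusted p = 0.00313).

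The mitotic promoters differed from the licensing ones in matches to the E2F-type letters and to TTTGAA, while CCAAT was found in 77.8% and 75% of them. The share with GGGCGG was also 77.8% and 75%, and 80.5% over all matched promoters of the 44 genes, against 35.7% of all promoters. The cell cycle homology region TTTGAA, searched on both strands, was found in 6 of the 9 mitotic promoters that were matched, against 17.9% of all promoters, and none of the 9 held an E2F-type match. Over all 41 matched promoters of the 44 genes its share was 24.4%, and CCAAT was found in 58.5%, against 37.4% of all promoters. The 250 bases before the start are shown for Top2a, which moved in opposite directions in the lines, and for Cdk1, which passed no test before scaling, with matches to these and to the E2F-type letters on either strand in capitals. Top2a lies at chr11:99024190-99024439 and Cdk1 at chr10:69352913-69353162, both on the minus strand.
Top2a: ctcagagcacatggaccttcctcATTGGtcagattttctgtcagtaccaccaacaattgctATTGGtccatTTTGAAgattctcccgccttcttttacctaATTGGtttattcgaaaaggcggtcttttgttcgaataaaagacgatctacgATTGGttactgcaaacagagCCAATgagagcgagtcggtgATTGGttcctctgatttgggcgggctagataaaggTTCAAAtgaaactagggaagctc
Cdk1: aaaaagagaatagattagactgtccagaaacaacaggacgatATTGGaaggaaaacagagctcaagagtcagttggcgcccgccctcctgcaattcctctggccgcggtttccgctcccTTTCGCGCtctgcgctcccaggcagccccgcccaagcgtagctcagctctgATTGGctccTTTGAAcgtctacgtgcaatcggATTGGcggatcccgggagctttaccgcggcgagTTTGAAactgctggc
Each holds 2 TTTGAA matches. The Runx letters TGTGGT were found in 9.76% of the 41 promoters, against 16.8% of all, and the Zeb letters CAGGTA, or the same with a final G, in 7.32%, against 29.5%. A match is a string of letters and not a bound site. The set of all promoters was neither limited to the genes tested nor matched in base composition. The cause of any difference in share was therefore not tested.

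**Figure D3:**
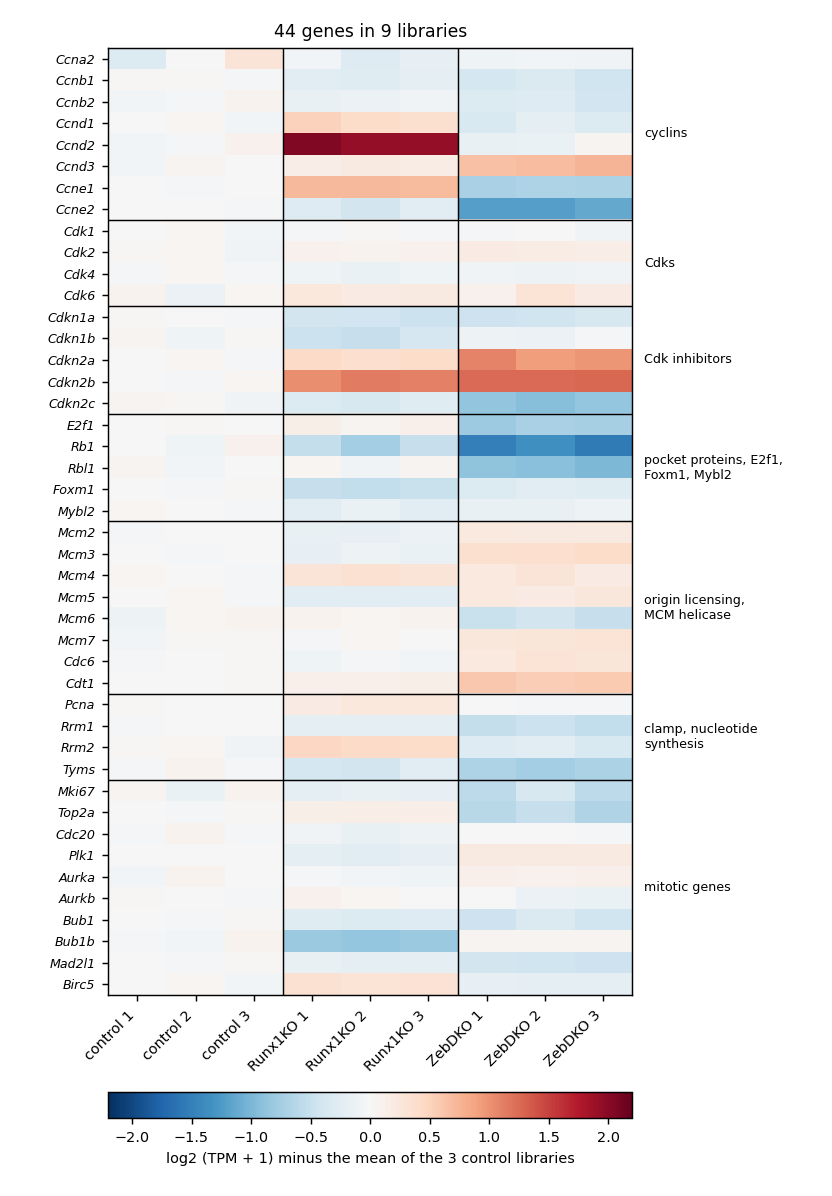
Log2 (TPM + 1) of the 44 genes (rows, by role) in each of the 9 libraries (columns), minus the mean of the 3 control libraries, with red above and blue below control. Libraries of a line look alike in nearly every row, Ccna2 being the row in which the control libraries differ most (186.4 to 281.3 TPM).

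Wider lists of cell cycle genes, none of which holds any of the 44, had more genes called lower than higher in both lines, as had all genes tested (40.1% lower and 30.4% higher in Runx1KO, 52.5% and 26.9% in ZebDKO). The lists, like the 44 genes, were chosen with earlier results of these data known. Of 47 further mitosis genes, 3 rose and 36 fell in Runx1KO, with a median log2 fold change of -0.32, and 5 rose and 31 fell in ZebDKO, with a median of -0.28 beside -0.18 for all genes. The share called lower was 76.6% in Runx1KO and 66% in ZebDKO. After median-ratio scaling, which for these lists was added after the data were seen, 4 were higher and 34 lower in Runx1KO, and 15 higher and 23 lower in ZebDKO. The share lower was then 72.3% in Runx1KO and 48.9% in ZebDKO. All genes tested then had 34.7% higher and 34.1% lower in Runx1KO, and 38.2% and 37.9% in ZebDKO. Mad1l1, a checkpoint protein, and Cenpe, a kinetochore motor, had the largest changes in Runx1KO (-0.86 ± 0.03 and -0.73 ± 0.04), and Ckap2, a spindle protein, and Nuf2, of the kinetochore, in ZebDKO (-1.02 ± 0.05 and -0.96 ± 0.04). Of 39 genes of replication origins and forks, 7 rose and 17 fell in Runx1KO, and 10 rose and 26 fell in ZebDKO, a share called lower of 43.6% and 66.7%. After scaling 13 were higher and 14 lower in Runx1KO, and 12 and 17 in ZebDKO. The largest changes were those of Tk1, thymidine kinase (0.93 ± 0.04), and Prim2, a primase subunit (-0.83 ± 0.05), in Runx1KO, and of Orc1, of the origin recognition complex (1.03 ± 0.04), and Pole2, a polymerase subunit (-0.98 ± 0.08), in ZebDKO. Of 33 other regulators of G1, S and G2, 32 were tested in Runx1KO, where 11 rose and 12 fell, and in ZebDKO 10 rose and 16 fell. After scaling 11 were higher and 10 lower in Runx1KO, and 13 and 12 in ZebDKO. Mycn (1.12 ± 0.10) and E2f2 (-1.09 ± 0.05) led in Runx1KO. Mycn was low, at 0.8, 1 and 1.1 TPM in control and 3.7, 2.9 and 3.2 TPM in Runx1KO. Myc, a driver of cell growth, led in ZebDKO, from 40.6, 38.6 and 40.4 TPM in control to 184.1, 179.7 and 188.3 TPM (2.18 ± 0.04, adjusted p = 1.70e-08). The cyclin Ccna1 followed (1.95 ± 0.18), from 1.5, 1.4 and 0.6 TPM in control to 7.6, 6.4 and 7.7 TPM. Mycn and Ccna1 passed the filter on low values only with the knockout libraries in which they were high.

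**Figure D4:**
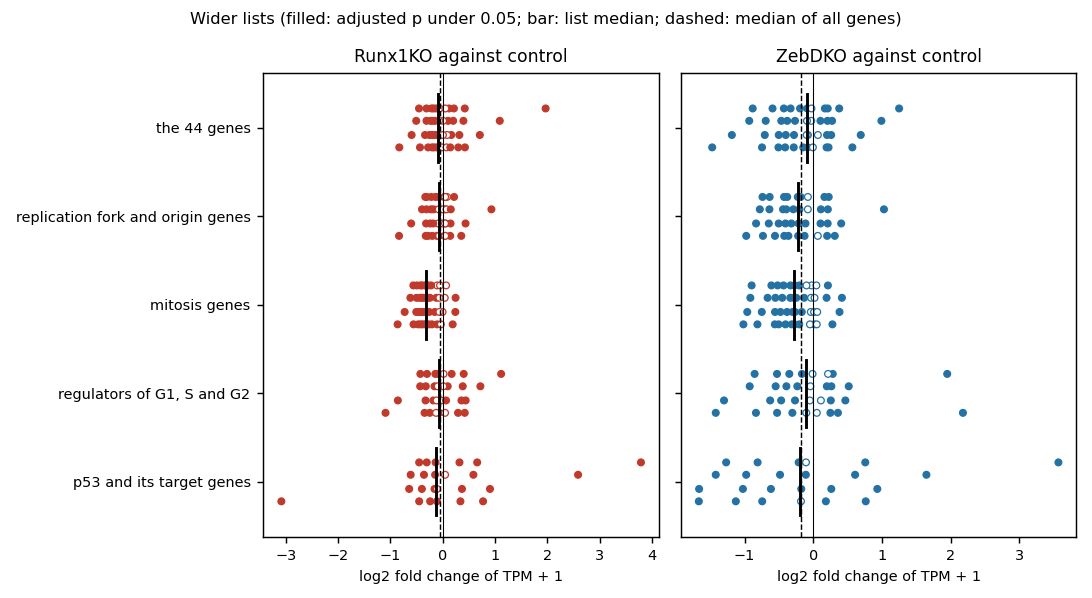
Log2 fold change against control (x axis) of each gene of the 44 and of 4 wider lists (rows), in Runx1KO (left) and ZebDKO (right), filled where the adjusted p was under 0.05. Thick bars are list medians and the dashed line is the median of all genes tested. The mitosis list has its median at -0.32 in Runx1KO, left of the all-gene median of -0.06.

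Chromatin data existed for control and Runx1KO cells. The authors' ATAC-seq lists hold accessible regions classed as Runx1-dependent, Runx1KO-induced or Runx1-independent, and their ChIP-seq lists hold peaks called on combined replicates, so region and peak values have no replicate error. Within 1 kb of a GENCODE start site, 40 of the 44 genes (90.9%) had a Runx1-independent region, beside 83.3% of 11245 tested genes with a position. A Runx1KO-induced region was found at 2 (Ccnb1 and Ccnd2, 4.5% beside 6.58%) and a Runx1-dependent region at 1 (Cdkn2a, 2.3% beside 4.3%). Mcm4, Pcna and Aurka had no listed region there, although each was expressed at over 100 TPM. A Runx1 peak lay at a start site of 14 genes (31.8% beside 20.2%), a Runx2 peak in control at 23 (52.3% beside 48.8%) and a Runx2 peak in Runx1KO at 27 (61.4% beside 51.5%). A gene with several annotated start sites was counted if any of them had a peak. For Ccnd1 the Runx1 peak lay at the inner start site and not at the outer one. Of the 14 genes with a Runx1 peak 5 rose in Runx1KO, 4 fell and 5 did not pass the test, and of the other 30 genes 9 rose, 17 fell and 4 did not pass. The same split was not made for all genes tested, so these counts have no baseline and no link with the peak was tested.

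Ccnd2, with the largest change of the 44 genes in Runx1KO, was the only one of the 44 whose start site lay in a Runx1KO-induced region and in no other listed region. The gene lies at chr6:127075797-127101066 on the minus strand (mm9), and the region, 1251 bases at chr6:127099958-127101208, covers its start. No Runx1 peak was listed within 50 kb of the start, and the Runx2 peaks listed in that span lay 41200 bases away in Runx1KO and 41261 bases away in control. The whole region held TGTGGT once, the Zeb letters once and GGGCGG once. The 142 bases of it that lie before the start, chr6:127101067-127101208 on the minus strand, held none of the letters searched and are given in lower case.
Ccnd2: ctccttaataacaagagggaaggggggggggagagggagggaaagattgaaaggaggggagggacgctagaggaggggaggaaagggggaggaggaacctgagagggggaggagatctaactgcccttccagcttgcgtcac

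Cdkn2b and Cdkn2a lie next to each other, at chr4:88952198-88956941 and chr4:88920377-88940557 on the minus strand (mm9). The start of Cdkn2b lay in a Runx1-independent region with a Runx1 peak in control (chr4:88956786-88957021, 4.67-fold over background by MACS2) and with Runx2 peaks in control (7.39-fold) and in Runx1KO (5.49-fold). Runx1KO-induced regions lay between the genes, at chr4:88949574-88949899 and chr4:88942419-88942733. The single Runx1-dependent region at a start site of the 44 genes, chr4:88927902-88928477, covers the inner start of Cdkn2a, that of its p16 transcript, while the outer start, that of p19Arf, lay in a Runx1-independent region. The 236 bases of the Runx1 peak at Cdkn2b held no TGTGGT. Its 80 bases before the start, chr4:88956942-88957021 on the minus strand, are given in lower case.
Cdkn2b: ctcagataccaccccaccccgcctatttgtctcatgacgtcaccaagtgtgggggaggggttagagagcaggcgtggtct

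**Figure D5:**
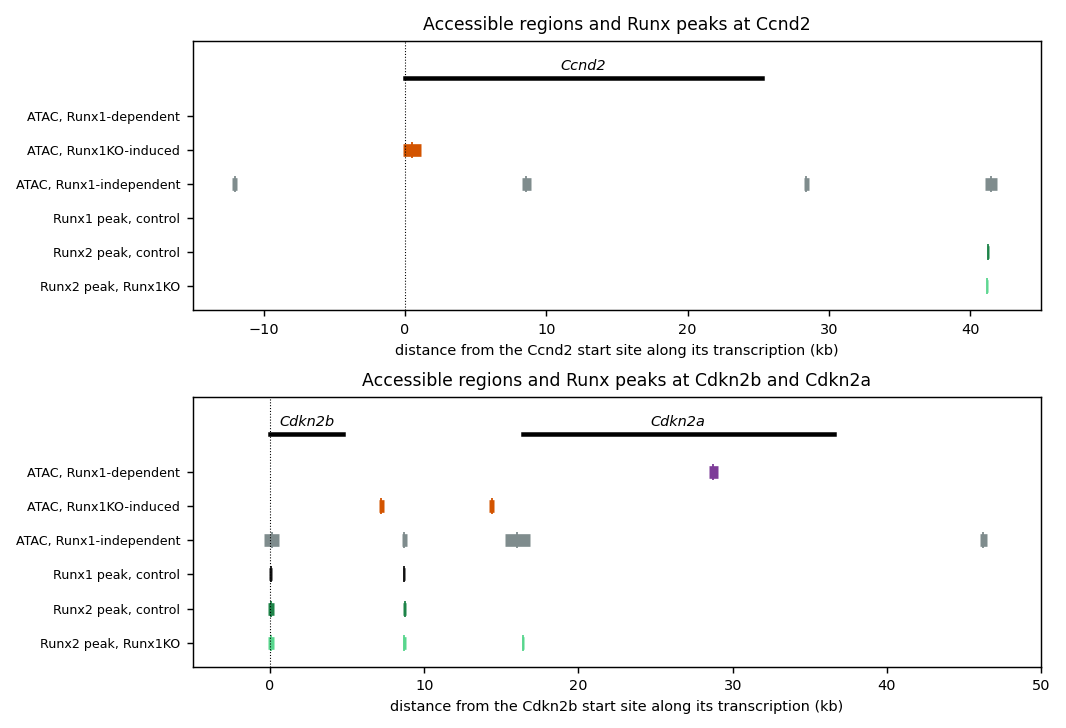
Accessible regions and Runx peaks (rows) around Ccnd2 (top) and Cdkn2b with Cdkn2a (bottom), by distance in kb along transcription from the start of Ccnd2 or Cdkn2b (x axis). Black bars are the genes. At Ccnd2 the Runx1KO-induced region of 1251 bases sits on the start site, and at Cdkn2b the Runx1 and Runx2 peaks sit on the start site.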

How the data were processed

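RNA-seq of polyadenylated RNA was read from a deposited table of TPM values, made by the authors from trimmed reads aligned with STAR to mm9, counted per RefSeq gene with featureCounts 1.6.2 (the version given by the submitters' processing notes) and scaled by gene length and library total. A second deposited TPM table of 6 of the libraries served as an alternative. The ZebDKO libraries carry another extraction text in the labels than the other 6, so a submission batch and the genotype cannot be told apart. TPM values were analysed as log2(TPM + 1) with limma 3.58.1 (R 4.3.3, empirical Bayes with trend), on genes at 1 TPM or more in 3 of 6 libraries, each comparison fitted to its own 6 libraries, with Benjamini-Hochberg adjustment over all genes tested. A fold change on this scale understates that of low genes. Errors given after ± are standard errors on the log2 scale and SDs on the TPM scale. The fit was tested on simulated data. TPM values keep no depth, so intervals from counting error could not be given.

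The 44 genes, the wider lists and the motifs were chosen with earlier results of these data known. Genes were given in full if they passed 2-fold in any comparison, were among the 3 largest called changes of a comparison and direction, or had the highest mean TPM of their role group. From each wider list the genes with the largest called changes in each line were named. Replicate numbers did not pair the libraries (correlation of deviations -0.053 to 0.039 for the same number), and separate cultures of 1 line give p-values that measure the spread between cultures.

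ATAC-seq region lists were deposited in 3 classes by the authors, whose columns of log2 change and its p-value were not used. ChIP-seq peaks were called by the authors with MACS2 on combined replicates, and the deposited peak files give a fold enrichment ratio and a -log10 q-value per peak. Regions and peaks were assigned to genes by an overlap of 1 base with 1 kb on either side of a GENCODE start site on mm9, and for 3 genes within 50 kb, a window chosen after seeing the data. Python 3.11.15 was used for positions, motifs and plots. Alternatives were other pseudocounts (0.1 and 0.5), filters (none and 5 TPM), scalings, no trend, a fit over all 9 libraries, a replicate block, each library left out in turn, a fold limit of 1.3 and other windows.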

Additional observations from a re-analysis of the deposited data

Results flagged for a closer look

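The direct comparison of Runx1KO with ZebDKO found 11 genes that either were called on opposite sides of control in the lines or differed between the lines by over 2-fold (limma, adjusted p under 0.05 for each difference). Of all genes tested, 80% were called in that comparison and 15.8% passed 2-fold. The share of all genes that met the joint rule was not computed, so the count of 11 has no baseline. Groups of 3 libraries were too small for a search for single outlying libraries. Values are Runx1KO minus ZebDKO on the log2 scale. Higher in Runx1KO were Ccnd2 (2.05, adjusted p = 2.35e-07), Ccne1 (1.40, adjusted p = 3.63e-08), E2f1 (0.85, adjusted p = 1.04e-06), Top2a (0.74, adjusted p = 1.88e-06), Rrm2 (0.71, adjusted p = 1.18e-06), Ccnd1 (0.70, adjusted p = 9.53e-06) and Birc5 (0.51, adjusted p = 1.90e-06). Lower in Runx1KO were Mcm3 (-0.52, adjusted p = 2.16e-06), Mcm5 (-0.46, adjusted p = 2.97e-06), Plk1 (-0.41, adjusted p = 4.34e-06) and Mcm2 (-0.37, adjusted p = 7.59e-06). All 11 differences kept their direction and call after median-ratio scaling, at 1.90 for Ccnd2, 1.25 for Ccne1, 0.70 for E2f1, 0.58 for Top2a, 0.55 for Rrm2 and for Ccnd1, 0.35 for Birc5, -0.68 for Mcm3, -0.62 for Mcm5, -0.56 for Plk1 and -0.52 for Mcm2. The falls of Ccnd1, Rrm2 and Birc5 in ZebDKO against control were not called after that scaling, and the rise of E2f1 in Runx1KO was 0.10 and lost its call without 4 of the 6 libraries.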

How the results depend on the processing

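The genes past 2-fold were Ccnd2 and Cdkn2b in Runx1KO under every alternative run, and Cdkn2b and Rb1 in ZebDKO, where Ccne2 dropped below the limit under median-ratio scaling (-1) and quantile normalization, and Cdkn2a rose past it under the former and without control replicate 2, ZebDKO replicate 2 or ZebDKO replicate 3. Ccnd2 and Ccne1 were past it in every direct comparison, and Bub1b joined them under median-ratio scaling. At a limit of 1.3-fold 11 of the 44 genes passed in Runx1KO, 19 in ZebDKO and 19 in the direct comparison. Median-ratio scaling moved the median of the 44 genes to -0.03 in Runx1KO, 0.10 in ZebDKO and -0.11 in the direct comparison, turning the sign of the last 2, and it turned the ZebDKO value of Cdk4 to 0.11, of Mybl2 to 0.05 and of Birc5 to 0.00, and the direct values of Ccnb1, Aurkb and Bub1 to -0.01, -0.01 and -0.03. Bub1 also turned under quantile normalization, to -0.03. The TPM table of 6 libraries gave a Runx1KO median of -0.10 and a Ccnd2 value of 1.49 in place of 1.97. It took the Runx1KO calls of Ccnb2 and Cdc20 and brought that of Rbl1, which was lower. Median-ratio scaling took the direct calls of Ccnb1, Ccnb2, Aurkb, Bub1 and Mad2l1 and brought those of Ccna2, Cdk1, Cdk4, Cdk6, Cdkn1a and Mybl2, all lower in Runx1KO; quantile normalization took those of Cdc20 and Bub1 and brought Cdk6 and Mcm4. Leaving out 1 library gave 12 to 14 genes higher and 18 to 21 lower in Runx1KO (median -0.11 to -0.06), 12 to 13 higher and 22 to 23 lower in ZebDKO (median -0.14 to -0.08), and 19 to 21 higher and 15 to 17 lower in the direct comparison (median 0.03 to 0.08), where Aurkb, Bub1 and Cdk2 lost their calls (adjusted p = 0.0531 to 0.127). The cause of these moves was not tested. A replicate block, for numbers that did not pair the libraries, took 2 calls in each comparison (E2f1 and Cdc20, Cdk6 and Aurka, Cdk2 and Bub1) and left the genes past 2-fold as they were. No count of called genes moved by over 1.5 times except with the 1.3-fold limit. Other windows at the start sites gave 13 to 15 genes with a Runx1 peak, 23 to 24 with a Runx2 peak in control, 25 to 27 in Runx1KO and 41 to 42 with an accessible region. The level of a gene relative to other genes depends on the table: Birc5 averaged 74.5 TPM in the control libraries of the main table and was at 202.75 to 213.93 TPM in the other.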

Other observations

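Genes of the p53 pathway, of which Cdkn1a is a classic target, were read from a list of 24 that holds none of the 44. In Runx1KO 9 rose and 13 fell, with a median log2 fold change of -0.12, and in ZebDKO 8 rose and 14 fell, with a median of -0.20 beside -0.18 for all genes. The shares were 37.5% higher and 54.2% lower in Runx1KO, where all genes had 30.4% and 40.1%, and 33.3% and 58.3% in ZebDKO, where all genes had 26.9% and 52.5%. After median-ratio scaling 9 were higher and 9 lower in Runx1KO (37.5% each), where all genes then had 34.7% and 34.1%. In ZebDKO 8 were then higher and 11 lower (33.3% and 45.8%), where all genes had 38.2% and 37.9%. Trp53 itself was at 183.8, 185.6 and 178.1 TPM in control, 149.2, 151.4 and 141.9 TPM in Runx1KO, and 292.0, 304.5 and 336.5 TPM in ZebDKO, so the lines lay on opposite sides of control without overlap. Mdm2, the p53 ubiquitin ligase and a p53 target, averaged 250.2 ± 7.37 TPM in control, 189.5 ± 2.5 TPM in Runx1KO and 122.5 ± 6.09 TPM in ZebDKO (SD, n = 3). The largest changes were those of Perp, a desmosome gene of epithelia as well as a p53 target, in both lines (3.79 ± 0.06 and 3.57 ± 0.06), of the death receptor Fas in Runx1KO (-3.08 ± 0.11) and of Zmat3 in ZebDKO (-1.67 ± 0.08). Trp53, Mdm2 and Ccng1 were singled out after their values were seen.

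Ccng1, a cyclin that p53 induces, was at 676.7, 668.6 and 621.8 TPM in control, 605.2, 583.4 and 574.2 TPM in Runx1KO, and 237.5, 256.8 and 238.3 TPM in ZebDKO. Every ZebDKO library lay far below the rest (-1.42 ± 0.05, adjusted p = 2.33e-07), and the libraries of Runx1KO lay below those of control.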
